A study of Mus musculus with 24 samples.

Results

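The 39 Hox genes of the mouse, which lie in 4 clusters named A to D, were followed across 24 arrays of mouse aorta. Members were the rows outside controls whose file name is Hox with a cluster letter and a paralogue number, and every one of the 39 genes had at least 1 of 44 probes. A probe entered the tests where each of the 3 arrays of some group had it well above background. By that filter 25 of the 39 Hox genes were measured, of 23506 measured genes among 35019 on the array. Where a gene had several probes the brightest that passed stood for it, and the other 14 Hox genes are accounted for below by the arrays on which they were seen.

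RNA of aorta, prepared as total RNA, was hybridised in 1 colour, and levels below are log2 of the processed signal minus the array's 75th percentile. The mice were wild-type C57BL/6 (WT) or IL-17 knockouts, also labelled C57BL/6 (KO), so that interleukin 17, a cytokine of T cells, was missing in 4 of the 8 groups. Within each genotype, 1 group had plain water and vehicle, 1 had 1% NaCl as drinking water and vehicle, 1 had plain water with β-aminopropionitrile (BAPN, which blocks collagen and elastin crosslinking) plus angiotensin II for 3 days, and 1 had 1% NaCl with that infusion. All mice ate normal chow, and salt was given before and during the 3 days. Each group had 3 arrays, called biological replicates in the series. The sample labels give BAPN as the agent, and the protocol adds angiotensin II. The labels name the aorta and no segment of it.

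Hox genes encode homeodomain transcription factors that give cells of the embryo their place along the head-to-tail axis. Genes of low paralogue number are switched on first and reach furthest forward, while genes of high number are kept to the trunk, tail, limbs and urogenital tract. Much of this code persists in the adult, so that vessels keep a record of the level from which they came. In the aorta, Hox genes of higher number are known to be more active in the descending and abdominal parts than in the arch.

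Across the series, each array had 51.1% to 60.8% of its spots above background by the scanner's flag and none saturated. The probe for Il17a, the deleted cytokine gene, was well above background on 0 of 24 arrays, WT arrays included, so it does not check the genotype labels. The arrays lay on 4 slides, which were scanned on 2 days. All 12 WT arrays were on slides 3 and 4 and all 12 KO arrays on slides 1 and 2, so genotype and slide or scan cannot be told apart. The 3 WT infused arrays on water were all on slide 4 and the 3 KO infused arrays on salt all on slide 2, apart from their vehicle groups.

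Probe sequences were read as well, and a link between sequence and detection was not tested. Some of the 44 probes held codons of the protein's most conserved stretches, found by translating each probe in an open frame, and 2 are shown. In the Hoxc11 probe the capitals mark the codons of the invariant core of the homeodomain's recognition helix, which contacts DNA, and in the Hoxa6 probe they mark the codons of the hexapeptide that binds Pbx cofactors. Each is written 5′ to 3′.
Hoxc11 (A_55_P2028399, chr15:102787022-102787081, plus strand, mm9): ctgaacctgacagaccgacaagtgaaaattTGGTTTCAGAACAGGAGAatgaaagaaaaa
Hoxa6 (A_51_P360586, chr6:52158194-52158253, minus strand, mm9): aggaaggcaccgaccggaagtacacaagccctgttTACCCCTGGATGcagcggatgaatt
The Hoxc11 probe was well above background on 0 of 24 arrays. The Hoxa6 probe was above background on all 24. A probe of Hoxb3, not shown, held codons of the same core as the Hoxc11 probe and was above background on all 24 arrays.

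For Hoxd11 the probes of the gene were not alike, and the first 30 bases of each are given for that reason, with no capitals.
Hoxd11 (A_55_P1958185, chr2:74522136-74522165, plus strand, mm9): aaagaaaagaaactgaacagggaccgtctg
Hoxd11 (A_66_P108986, chr2:74525014-74525043, plus strand, mm9): attaaacggcttttgtttaaaacagattag
The first Hoxd11 probe, which targets the RefSeq transcript, was above background on 1 array, and the second, which lies 2878 bases further along chromosome 2, on 11. Hoxd11 values below come from that second probe, which was seen on 11 WT and 0 KO arrays, where the first was seen on 0 WT arrays and 1 KO array. Hoxb3, Hoxa9 and Hoxa13 also had a pair of probes each. Both Hoxb3 probes were seen on 24 arrays, those of Hoxa9 on 24 and 18, and those of Hoxa13 on 3 and 1.

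Ordered by paralogue number, the genes of the front and middle of the axis were seen on most arrays and those of the rear on few. Of the 12 genes of paralogues 1 to 4, 9 were well above background on all 24 arrays and 3 on none. Of the 11 genes of paralogues 5 to 8, 8 were seen on all 24 arrays, 3 on some and 0 on none. Of the 16 genes of paralogues 9 to 13, 2 were seen on all 24 arrays, 6 on some and 8 on none. Over all genes on the array, 51.8% were seen on all 24 arrays, against 75%, 72.7% and 12.5% of these 3 classes.

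The clusters were unequal as well. Cluster A had 9 of 11 genes on all 24 arrays and cluster B 7 of 10, but cluster C had 2 of 9 and cluster D 1 of 9, the latter being Hoxd4. In clusters A and B the run of detected genes was unbroken from Hoxa2 to Hoxa10 and from Hoxb2 to Hoxb9, where Hoxb9 was seen on 22 arrays. The front genes that were not seen were Hoxb1, which patterns the hindbrain, Hoxd1 and Hoxd3. Not seen at the rear were Hoxa11, Hoxc11, Hoxc12, Hoxb13, Hoxd9, Hoxd10, Hoxd12 and Hoxd13, a set that holds some of the genes of the limb end and urogenital tract. A probe that is not well above background gives no more than an upper bound, and probes of the same gene can differ, as those of Hoxd11 showed.

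**Figure D1:**
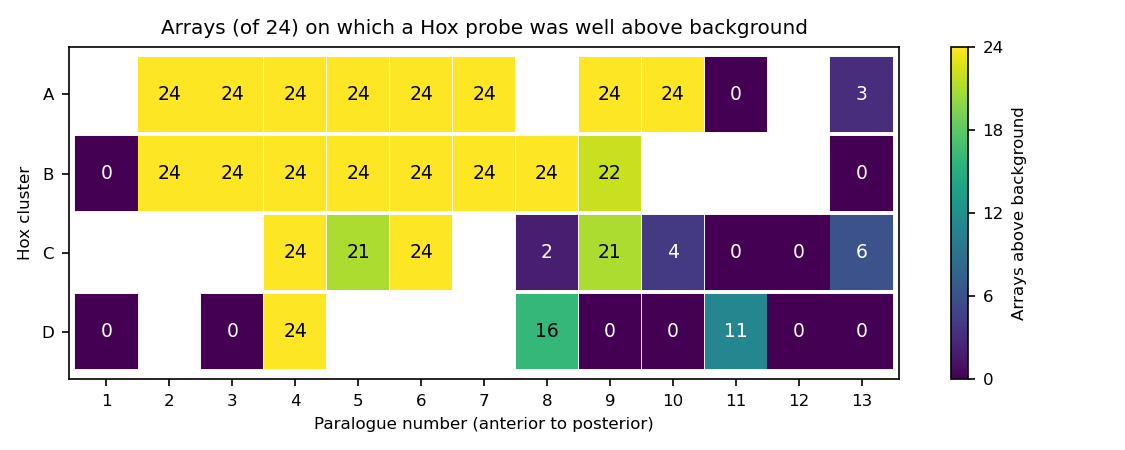
Number of arrays, of 24, on which the probe of each Hox gene was well above background, by cluster (rows A to D) and paralogue number (columns 1 to 13). Blank cells are positions with no gene or not plotted; a reader should see 24 across most of clusters A and B up to paralogue 8 and counts of 0 to 11 across most of cluster D.

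A few genes lay at the edge of detection. Hoxd8 was seen on 16 arrays, Hoxc5 and Hoxc9 on 21 each, Hoxc13, a gene of hair follicles, on 6, Hoxc10 on 4, Hoxa13 on 3 and Hoxc8 on 2. Hoxc10 and Hoxc8 were seen only on KO arrays, and Hoxa13 by its brighter probe only on WT arrays. The other Hoxa13 probe was seen on 0 WT arrays and 1 KO array. None of these 3 genes met the filter, so no test was made. The lowest signal that counted as above background lay between -4.93 and -4.12 on WT arrays and between -5.36 and -4.32 on KO arrays, so the floor of detection overlapped between genotypes.

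Infusion of BAPN with angiotensin II went with lower signal of 11 of the 25 measured Hox genes and higher signal of none, over the 12 infused and 12 vehicle arrays and all 4 strata of genotype and salt. Over all 23506 measured genes 58.7% passed the same test (limma with Benjamini-Hochberg adjustment over all of them, adjusted p below 0.05), 31.4% lower and 27.3% higher. The share of Hox genes called, 44.0%, was thus below that of all genes. Their direction was not divided as it was for all genes, and their median change was -0.31 against -0.04 for all genes. By cluster, 5 of 8 measured genes of cluster B were lower, 4 of 9 of A, 1 of 5 of C and 1 of 3 of D. By position, 5 of 9 genes of paralogues 1 to 4 were lower, 4 of 10 of paralogues 5 to 8 and 2 of 6 of paralogues 9 to 13. In bulk tissue, fewer cells of a type and less RNA per cell cannot be told apart.

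Among paralogues 1 to 4, Hoxb4, known for its part in blood stem cells, had vehicle values of 1.25 to 1.78 (median 1.52) and infused values of 0.34 to 1.28 (median 0.96). Its ranges touched only at the edge, and it fell by 0.63 ± 0.08 (SE, 12 arrays a side, 1.55-fold, adjusted p = 2.53e-06). Hoxb3, its neighbour in the cluster, ran from -1.29 to -0.71 (median -0.96) with vehicle and from -1.78 to -1.20 (median -1.49) with infusion. It fell by 0.49 ± 0.07 (adjusted p = 7.55e-06), and its second probe differed by -0.41 ± 0.12 (unadjusted p = 0.00307).

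Hoxa2, which sets the identity of the second pharyngeal arch, ran from -0.35 to 0.21 (median -0.08) with vehicle and from -1.33 to -0.17 (median -0.60) with infusion. It fell by 0.59 ± 0.11 (adjusted p = 0.000154), with the infused arrays on water WT replicate 3 (-0.17) and KO replicate 2 (-0.28) inside the vehicle range. Hoxa3, needed for the pharyngeal arch whose artery becomes the carotid, ran from 2.76 to 3.45 with vehicle and from 1.93 to 3.34 with infusion. It fell by 0.40 ± 0.12 (adjusted p = 0.00666), with wide overlap. Hoxd4 fell by 0.32 ± 0.09 (adjusted p = 0.00696), but its 4 strata were uneven, from 0.07 in WT on water to -0.73 in KO on water.

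Hoxb2, Hoxa4 and Hoxc4 of the same class did not pass. Hoxb2, a gene of the hindbrain, had a difference of -0.18 ± 0.08 (adjusted p = 0.0675), Hoxa4 of -0.11 ± 0.09 (adjusted p = 0.329) and Hoxc4 of -0.21 ± 0.11 (adjusted p = 0.105).

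Among paralogues 5 to 8, Hoxb6 was the only Hox gene whose 12 infused arrays all lay under the 12 vehicle arrays. Its vehicle values ran from 1.56 to 2.20 (median 1.74) and its infused values from 0.96 to 1.48 (median 1.26), and it fell by 0.52 ± 0.06 (1.43-fold, adjusted p = 1.94e-06). Hoxa7 had the largest change of the genes seen on all arrays. Its values ran from 2.17 to 2.99 (median 2.84) with vehicle and from 1.39 to 2.96 (median 1.90) with infusion, and it fell by 0.77 ± 0.12 (1.70-fold, adjusted p = 3.23e-05). WT infused replicate 3 on water, at 2.96, stood with the vehicle arrays, and KO infused replicate 2 on water, at 2.19, was just above the lowest of them.

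Hoxb5, a gene expressed early in endothelial and blood lineages, ran from -0.04 to 0.73 (median 0.42) with vehicle and from -0.61 to 0.29 (median -0.49) with infusion. It fell by 0.70 ± 0.11 (1.62-fold, adjusted p = 2.96e-05), and the same WT replicate 3 on water at 0.29 and WT replicate 2 on salt at 0.19 were its highest infused values. Hoxa5, known for its part in lung and rib patterning, fell by 0.31 ± 0.08 (adjusted p = 0.00201). Hoxa6, Hoxb7, Hoxc5, Hoxc6, Hoxb8 and Hoxd8 did not pass. Hoxb7, the neighbour of the lowered Hoxb6, had a difference of -0.03 ± 0.12 (adjusted p = 0.84), and Hoxd8 of 0.72 ± 0.31 (adjusted p = 0.0506).

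**Figure D2:**
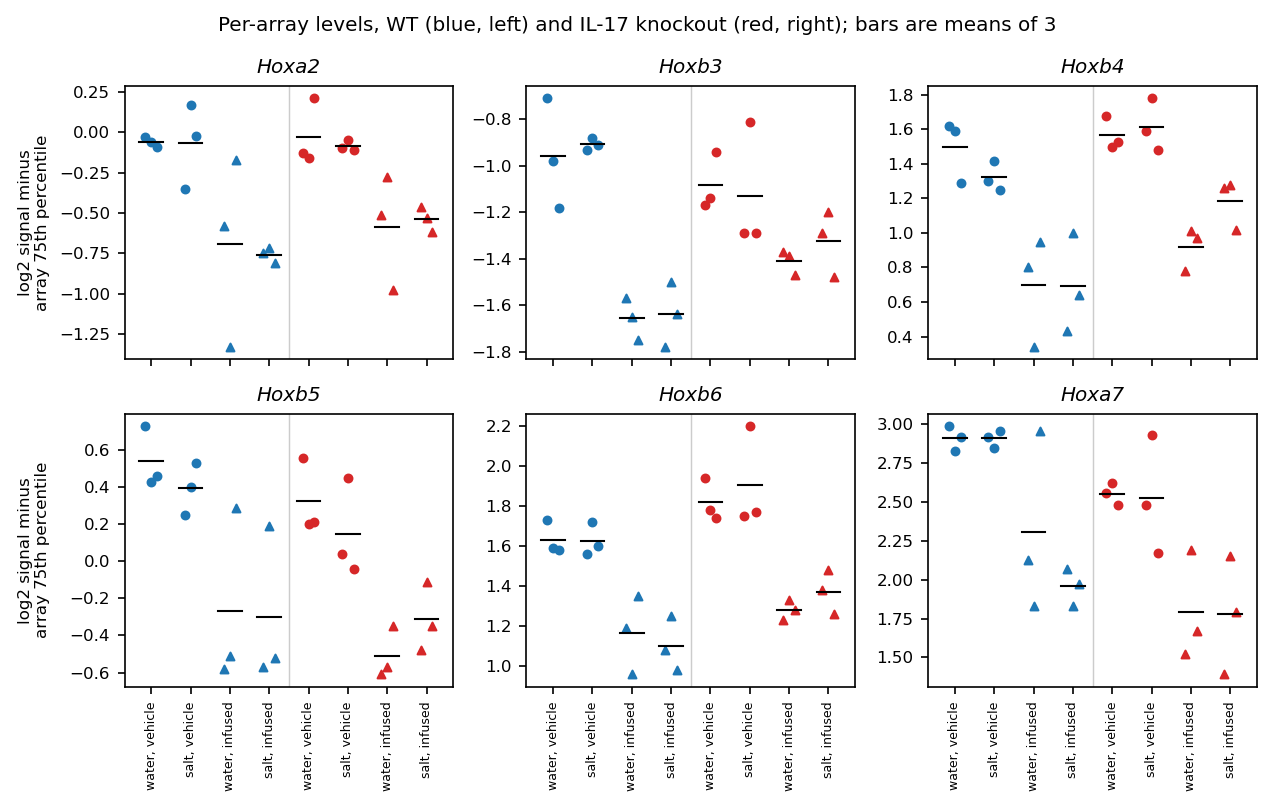
Level of 6 Hox genes on each of 24 arrays (log2 signal minus the array's 75th percentile) in the 8 groups, WT in blue at left and KO in red at right, circles for vehicle and triangles for infused arrays, bars for means of 3. All infused arrays lie under all vehicle arrays of the same genotype for Hoxb4 and Hoxb6. For Hoxa2, Hoxb3, Hoxb5 and Hoxa7 they overlap in WT, in KO or in both. Hoxb6 has no overlap across genotypes either (0.96 to 1.48 against 1.56 to 2.20).

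Of paralogues 9 to 13, Hoxb9 fell by 0.31 ± 0.12 (adjusted p = 0.0343), the largest p of the 11. That call was lost on leaving out any 1 of 11 single arrays: WT control 1 and 2, WT salt 1, WT infused 1, WT salt with infusion 1, KO control 1 and 2, KO salt 1, KO infused 3, and KO salt with infusion 1 and 3, where its difference lay between -0.30 and -0.23. It was also lost with quantile normalization (-0.20, adjusted p = 0.113), where Hoxd4 was not called either (-0.22, adjusted p = 0.0724). Hoxc13 was the other rear gene counted as lower. It was above background on 5 vehicle arrays and 1 infused array, all WT, and passed the filter only through WT control, where it was high, so its place among the 11 is a description and the size of its change is not known. Hoxa9 and Hoxa10, the rear genes seen on all arrays, had differences of -0.01 ± 0.09 (adjusted p = 0.93) and 0.10 ± 0.12 (adjusted p = 0.478). Hoxc9 and Hoxd11 did not pass either.

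With slide as a fixed block, 7 of the 11 stayed lower: Hoxb3, Hoxb4, Hoxb5, Hoxb6, Hoxa5, Hoxa7 and Hoxc13, with adjusted p between 0.00204 and 0.0408. The others, Hoxa2, Hoxa3, Hoxd4 and Hoxb9, were not called there (adjusted p = 0.108, 0.118, 0.222 and 0.366). Their differences with that block were -0.36 ± 0.18, -0.36 ± 0.18, -0.26 ± 0.17 and -0.23 ± 0.2. In that fit Hoxc5 was higher, by 0.60 ± 0.22 (adjusted p = 0.0337). Hoxc13 passed the filter only through WT control, where it was high, so its place among the 7 is a description as well.

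Within the 4 strata, which share no arrays but 1 estimate of spread, directions were compared gene by gene. Of the 11 called genes, 10 had a negative difference in all 4, Hoxd4 being the exception, and of the other 14 measured genes none had. The 11 were called on the mean of these same 4 differences, so this count is a description and no separate support. Hoxc13, among the 10, was above background on no KO array, so its KO differences do not give a direction. In WT on water 7 of 25 were called, 6 lower and 1 higher, against 25.9% of all genes. In WT on salt 10 were called, all lower, against 32.9%. In KO on water 5 were called, all lower, against 30.6%, and in KO on salt 2, both lower, against 25.2%. The Hox shares were 28.0%, 40.0%, 20.0% and 8.00%. In WT on water, where infused and vehicle arrays lay on different slides, 0 of 25 were called with slide as a fixed or a random block. In KO on salt, where they also lay apart, the fixed block called 0 lower and 4 higher (Hoxb7, Hoxc4, Hoxc5 and Hoxc6) and the random block 1 lower.

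Hoxb6 was the gene called in all 4 strata. Its differences were -0.47 ± 0.13 in WT on water, -0.52 ± 0.13 in WT on salt, -0.54 ± 0.13 in KO on water and -0.53 ± 0.13 in KO on salt, with adjusted p between 0.00426 and 0.0126. With slide as a fixed block it was not called in WT on water or in KO on salt (-0.54, adjusted p = 0.0754 in the latter). Hoxb4 and Hoxb5 were called in both WT strata and in KO on water, where Hoxb5 fell by 0.83 ± 0.22 (adjusted p = 0.00886). Hoxa7 was called in 3 strata and missed in WT on water (-0.60 ± 0.25, adjusted p = 0.0788). Hoxb3 and Hoxa2 were called in both WT strata and in neither KO stratum. On water and on salt, Hoxb3 fell by 0.70 ± 0.14 and 0.74 ± 0.14 in WT and differed by -0.33 ± 0.14 and -0.19 ± 0.14 in KO. Hoxa2 was closer between genotypes, at -0.63 ± 0.22 and -0.7 ± 0.22 in WT and -0.56 ± 0.22 and -0.45 ± 0.22 in KO. Hoxc9 was the gene called higher in WT on water (adjusted p = 0.00383). Its control values were -5.23, -4.90 and -3.77, of which 1 was above background, so no fold is given, and its infused values were -3.42, -2.96 and -2.73.

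These counts moved with single arrays. In WT on water the count was 3 without WT control replicate 1 and 3 without WT infused replicate 2. In KO on water it was 3 without KO control replicate 1. In KO on salt it was 1 without KO salt replicate 1 and 1 without replicate 1 or 3 of KO salt with infusion, and it was 4 without replicate 2 or 3 of WT infused, arrays that lie outside the comparison but share its estimate of spread. Within slide 1, where KO control and 2 of the KO infused arrays were together, 3 genes were called (Hoxb4, Hoxb5 and Hoxb6). Within slide 3, where WT salt and 2 of the WT salt infused arrays were together, 6 were called (Hoxa2, Hoxb3, Hoxc4, Hoxb6, Hoxa7 and Hoxc13). Hoxc13 was above background on none of the WT salt infused arrays, so its call there is a description.

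**Figure D3:**
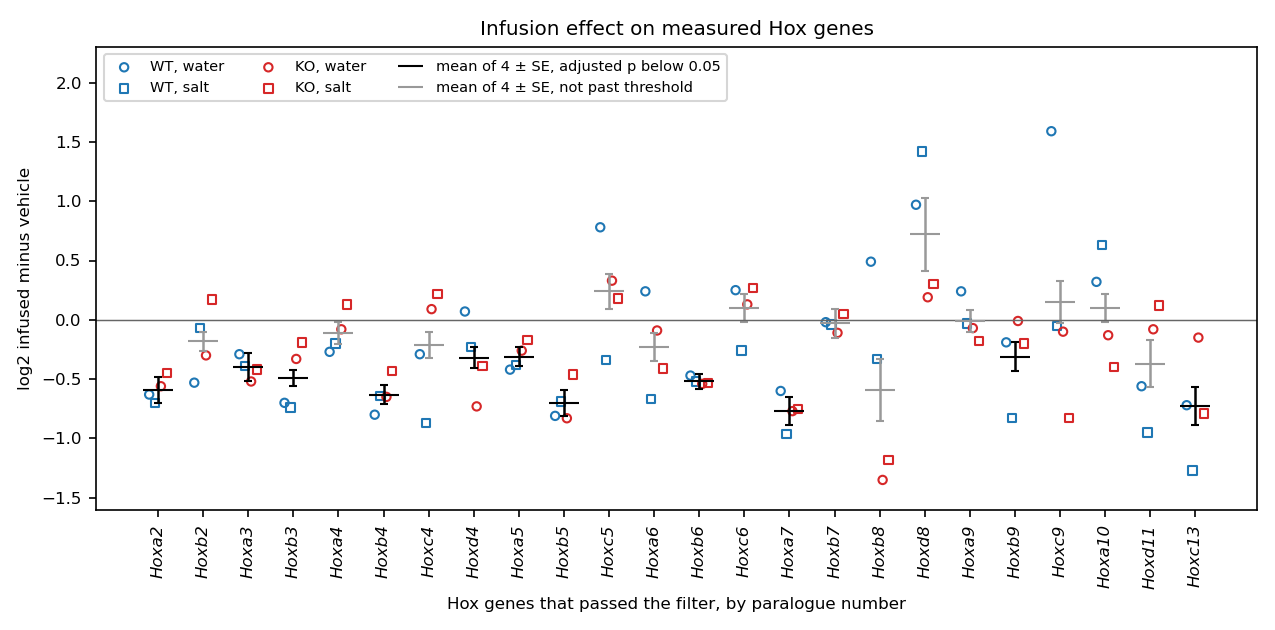
Difference of infused minus vehicle arrays (log2) for 24 of the 25 measured Hox genes, ordered by paralogue number. Open symbols are the 4 strata and bars the mean over strata with its SE, black where adjusted p was below 0.05; 11 bars are black and all 11 lie below 0, the lowest at Hoxa7 (-0.77).

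No Hox gene passed the test for a response that differed between genotypes. At an adjusted p below 0.05 the limma fit called 0 of 25 Hox genes for infusion by genotype, against 0.23% of all genes, and 6 had an unadjusted p below 0.05. These contrasts, KO minus WT, were -1.35 ± 0.53 for Hoxb8, -1.24 ± 0.36 for Hoxc9, -0.74 ± 0.24 for Hoxa10, 0.73 ± 0.22 for Hoxc4, -0.48 ± 0.19 for Hoxd4 and 0.46 ± 0.14 for Hoxb3, with adjusted p from 0.207 to 0.402. Hoxc4 was called for this contrast with slide as a fixed block (1.31, adjusted p = 0.026) and without KO infused replicate 3 (0.86, adjusted p = 0.043). In WT on salt Hoxc4 fell by 0.87 ± 0.22 (adjusted p = 0.0064), while in both KO strata its difference was positive, 0.09 ± 0.22 and 0.22 ± 0.22. The fit also called 0 Hox genes for infusion by salt and 0 for salt by genotype, where 0% of all genes were called, with 4 and 1 at an unadjusted p below 0.05.

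Salt in the drinking water changed no Hox gene past the threshold. Over all groups the limma fit called 0 of 25 Hox genes and 0% of all genes, and 3 Hox genes had an unadjusted p below 0.05. Hoxb9 was one of them, with a difference of -0.47 ± 0.12 (unadjusted p = 0.000897, adjusted p = 1). For salt alone, without infusion, 0 Hox genes and 0% of all genes were called in WT and the same in KO, with 1 Hox gene each at an unadjusted p below 0.05. Hoxb6, the gene with the smallest standard error, had a salt difference of 0.03 ± 0.06.

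Knockout arrays differed from wild-type arrays in 16 of the 25 Hox genes, 11 higher and 5 lower. Of all genes 68.1% were called, 31.3% higher and 36.8% lower, so the Hox share of 64.0% was close to that of all genes. In a fit that took slide as a random block, 4 of 25 Hox genes were called (Hoxb9, Hoxa4, Hoxd11 and Hoxc13), all among the 16, and 19.8% of all genes. Of these 4, Hoxd11 and Hoxc13 passed the filter only through WT groups, where they were higher, so their calls there are a description. With normexp background correction 7 Hox genes were called higher and 9 lower, of which 13 were among the 16. A fixed slide block has no estimate here, since no slide held both genotypes.

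Genes of cluster B were among those higher in KO. Hoxb9 ran from -5.41 to -3.18 (median -3.93) on WT and from -2.95 to -2.35 (median -2.63) on KO arrays. The 12 KO arrays all lay above the 12 WT arrays, and the difference was 1.35 ± 0.12 (2.55-fold, adjusted p = 1.51e-08). Hoxb8, a regulator of myeloid progenitors, ran from -3.91 to -2.81 (median -3.61) on WT and from -3.71 to 1.25 (median -1.6) on KO arrays. It was higher by 1.93 ± 0.26 (3.81-fold, adjusted p = 3.68e-06), and 11 of the 12 KO arrays lay above every WT array, KO salt with infusion replicate 1 (-3.71) being the exception. KO control replicate 1, at 1.25, stood far above the other KO arrays, of which the highest was at -1.15. Their neighbours Hoxb6 and Hoxb7 were higher by 0.21 ± 0.06 (adjusted p = 0.00677) and 0.29 ± 0.12 (adjusted p = 0.036). Both calls were lost with quantile normalization (0.12 and 0.20, adjusted p = 0.111 and 0.129) and with the authors' processed values (adjusted p = 0.115 and 0.132).

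In other clusters Hoxc6, Hoxd4, Hoxd8, Hoxc5 and Hoxa10, and in cluster B Hoxb4, were higher in KO as well. Hoxc6 was higher by 0.69 ± 0.12 (adjusted p = 7.82e-05) and Hoxd4 by 0.65 ± 0.09 (adjusted p = 7.4e-06). With normexp background correction the directions of Hoxc5, Hoxd8 and Hoxa10 turned to -0.18, -0.12 and -0.13, Hoxb9 was higher by 0.25 and Hoxd4 was no longer called (0.07, adjusted p = 0.32). Hoxd8, Hoxb7 and Hoxa10 lost their call on leaving out any 1 of 14, 12 and 8 single arrays, with differences of 0.53 to 0.71, 0.24 to 0.29 and 0.22 to 0.30 there.

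The genes lower in KO were Hoxa3, Hoxa4, Hoxa7, Hoxd11 and Hoxc13. Hoxa4 ran from -2.19 to -1.40 (median -1.67) on WT and from -2.99 to -2.20 (median -2.70) on KO arrays, so that all 12 KO arrays lay under the 12 WT arrays, and it fell by 0.90 ± 0.09 (1.87-fold, adjusted p = 9.07e-08). Hoxd11, a gene of the forearm and kidney, was by its second probe above background on 11 of 12 WT arrays and 0 of 12 KO arrays. WT values of that probe ran from -5.81 to -3.55 (median -3.84), and against the floor of the KO arrays its signal was at least 1.55-fold higher in WT. For that bound the level of each KO array was the higher of its own signal and the lowest signal called above background on that array. The first Hoxd11 probe, seen on 0 WT arrays and 1 KO array, does not show this difference. Hoxc13 was above background on 6 of 12 WT and 0 of 12 KO arrays, which leaves no fold above that floor. Hoxd11 and Hoxc13 passed the filter only through WT groups and Hoxd8 only through KO groups, the side on which each was higher, so their places among the 16 are a description.

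**Figure D4:**
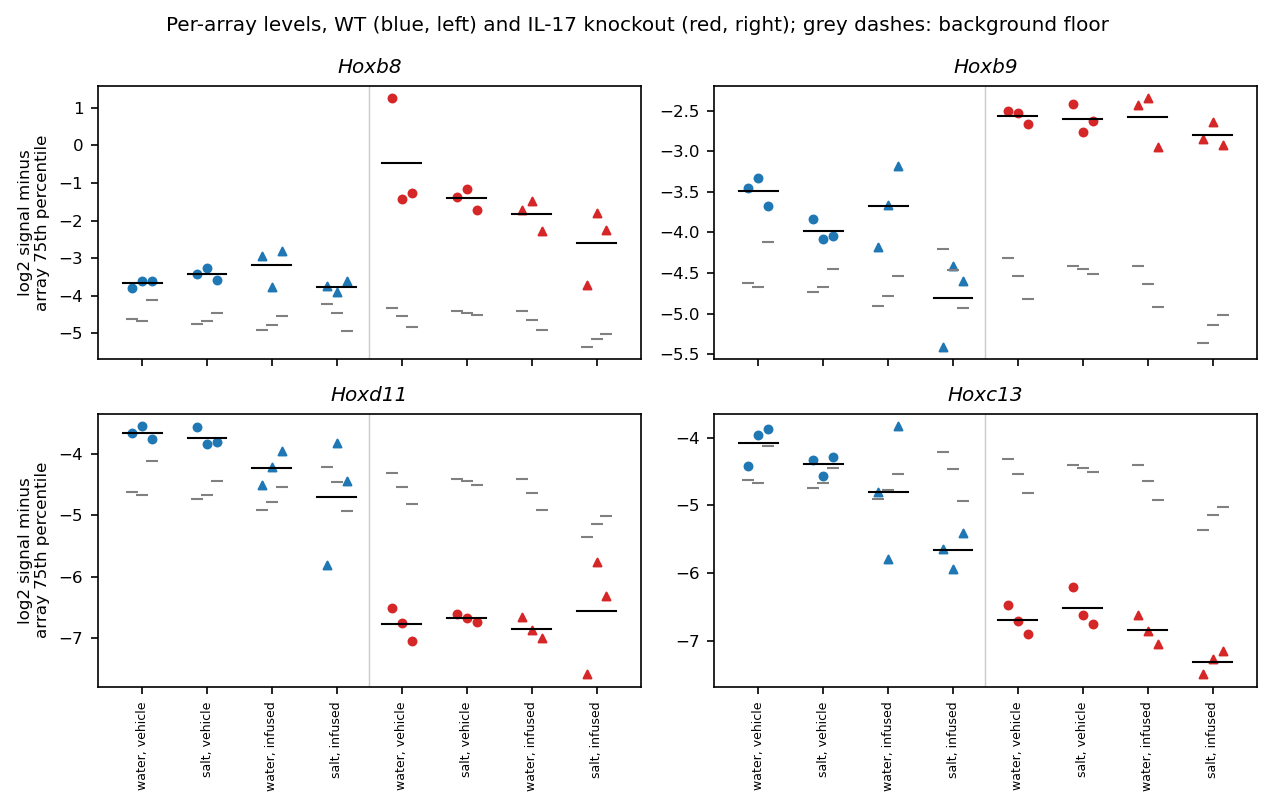
Level of Hoxb8, Hoxb9, Hoxd11 and Hoxc13 on each array (log2 signal minus the array's 75th percentile) in the 8 groups, WT in blue at left and KO in red at right, with the lowest signal called above background on each array as a grey dash. KO arrays lie above WT arrays for Hoxb9 (-2.95 to -2.35 against -5.41 to -3.18) and under the floor for Hoxd11 and Hoxc13.

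A noncoding transcript at the rear of cluster C moved with genotype in 1 of its probes. The file names 5 probes HOTAIR, between 102774511 and 102775064 of chromosome 15 (mm9), that is, between the probes of Hoxc12 and Hoxc11. One of them was above background on 11 WT and 0 KO arrays, another on 5 WT and 2 KO arrays, one more on 1 WT array, and the other two on none. The probes thus disagree on whether this transcript can be seen. The probe for Hoxa11os, the antisense transcript of Hoxa11, was above background on all 24 arrays, while that of Hoxa11 was on none, and its infusion difference was 0.09 ± 0.13 (adjusted p = 0.568). Of 18 noncoding transcripts of the clusters that were listed, 3 were found on the array by symbol and 1 passed the filter.

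Whether arrays differed in the level of the axis they report was asked with an index. For each array it is the mean of the measured genes of paralogues 9 to 13, each centred on its own mean over arrays, minus that of paralogues 1 to 4, so a higher value means relatively more signal of rear genes. It is a description, with no test, since its members were chosen by position among the genes that passed the filter, with earlier results known. In the rear class, Hoxd11 and Hoxc13 passed only through WT groups, where they were higher, so the index does not compare the genotypes fairly. The index was 0.14 ± 0.22 (SD, n = 3) in WT control, 0.10 ± 0.11 in WT salt, 0.64 ± 0.22 in WT infused and 0.05 ± 0.32 in WT salt with infusion. In KO it was -0.33 ± 0.17 in control, -0.14 ± 0.18 with salt, -0.07 ± 0.08 infused and -0.39 ± 0.15 with salt and infusion.

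Over all groups the infused arrays, from -0.51 to 0.84, and the vehicle arrays, from -0.48 to 0.40, overlapped. The SD of single arrays within groups was 0.19, which is not the error of a difference of means. The means of infused and vehicle arrays differed by 0.12. Behind this, paralogues 1 to 4 were lower with infusion by 0.31, paralogues 5 to 8 by 0.21 and paralogues 9 to 13 by 0.19 (differences of -0.31, -0.21 and -0.19). Of the rear class, Hoxa9 and Hoxa10, the genes seen on all 24 arrays, had differences of -0.01 and 0.10, so the negative mean of that class came from genes seen on fewer arrays. WT infused arrays on water, at 0.40, 0.68 and 0.84, were at or above every vehicle array, and the WT salt infused arrays, at -0.30, 0.14 and 0.32, were not. With only Hoxa9 and Hoxa10 as rear genes, the WT infused arrays on water were at 0.09, 0.68 and 0.21. KO salt replicate 3, a vehicle array, was then at 0.55. These WT infused arrays were all on slide 4, apart from their vehicle group.

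**Figure D5:**
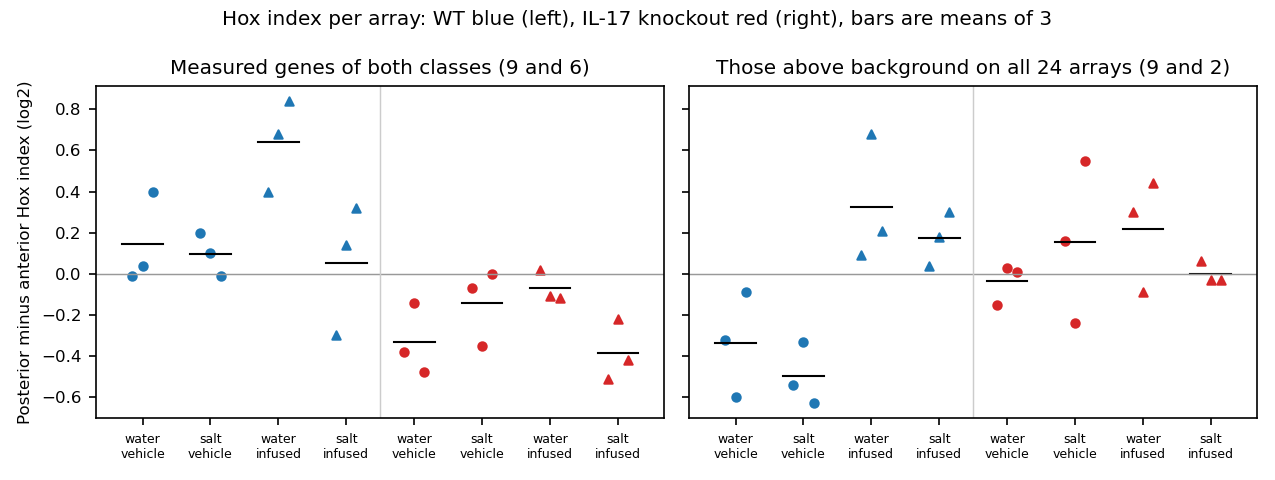
Posterior minus anterior Hox index (log2) of each array in the 8 groups, WT in blue at left and KO in red at right, bars for means of 3. The left panel uses 9 anterior and 6 posterior genes and the right panel the 9 and 2 that were above background on all 24 arrays; the panels order WT and KO differently (KO minus WT -0.46 and 0.17).

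The index depended on the genes that could be seen. With the 2 rear genes above background on all 24 arrays, Hoxa9 and Hoxa10, and the same 9 front genes, infused minus vehicle was 0.36 rather than 0.12. KO minus WT was -0.46 with all 6 rear genes, 2 of which were not seen on any KO array, and 0.17 with those 2. The sign of the genotype difference in the index therefore turned with the choice of rear genes.

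Promoter sequence was available for 22 of the 39 Hox genes, in 24 entries, and for 6 of the 11 lowered ones (RefSeq, GRCm38.p6, 250 bases before the start). Hoxa2 and Hoxb4 are shown as lowered genes with a match to a motif of a Hox-related factor, and Hoxa7 as the one with the largest change. Capitals mark the match, and each is written 5′ to 3′ on the gene's strand.
Hoxa2 (chr6:52164832-52165081, minus strand, GRCm38.p6): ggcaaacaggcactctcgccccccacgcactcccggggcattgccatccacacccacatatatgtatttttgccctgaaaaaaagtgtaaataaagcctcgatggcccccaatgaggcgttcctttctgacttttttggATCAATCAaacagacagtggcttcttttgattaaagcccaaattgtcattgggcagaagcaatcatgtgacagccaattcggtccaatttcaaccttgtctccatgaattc
Hoxb4 (chr11:96318017-96318266, plus strand, GRCm38.p6): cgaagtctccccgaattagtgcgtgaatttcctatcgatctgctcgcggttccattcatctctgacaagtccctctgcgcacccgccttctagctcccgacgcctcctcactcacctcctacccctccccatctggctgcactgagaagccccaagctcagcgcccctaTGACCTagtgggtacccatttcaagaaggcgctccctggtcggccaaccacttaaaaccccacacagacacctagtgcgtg
Hoxa7 (chr6:52218574-52218823, minus strand, GRCm38.p6): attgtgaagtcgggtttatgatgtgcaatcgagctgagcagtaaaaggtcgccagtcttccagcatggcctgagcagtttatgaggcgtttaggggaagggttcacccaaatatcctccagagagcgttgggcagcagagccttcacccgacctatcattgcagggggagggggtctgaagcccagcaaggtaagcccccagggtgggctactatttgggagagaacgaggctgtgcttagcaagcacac
In Hoxa2 the capitals are the reverse strand of TGATNNAT, the composite site of Hox and Pbx proteins, 111 bases before the start. In Hoxb4 they are the reverse strand of AGGTCA, the 6-base site of nuclear receptors such as those of retinoic acid, 81 bases before the start.

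Motifs were searched on both strands and counted by promoter. TGATNNAT was in 4 of 24 Hox promoters and 1 of the 6 of lowered genes, against 7.68% of 32851 promoters of the same length. AGGTCA was in 6 of 24 and 2 of 6, against 14%. The DR5 element of retinoic acid receptors, 2 copies of AGGTCA in the same direction with 5 bases between them, was in 0 of 24, against 0.00913%. TATAAA was in 4 of 24 and 1 of 6 (12.4% of all), CCAAT in 14 of 24 and 3 of 6 (33.8%), and GGGCGG in 10 of 24 and 0 of 6 (32.7%). DR5 contains AGGTCA on each side, so the counts of both overlap. A match is a string of letters and no more.

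The partners and regulators of Hox genes were read from lists. Hox proteins bind DNA with homeodomain cofactors of the Pbx and Meis families. Of a list of 12 genes of these cofactors and related proteins, all measured, 4 were higher and 5 lower with infusion (median -0.14, against -0.04 for all genes). Of all genes 27.3% were higher and 31.4% lower, 58.7% together, and the counts of the lists that follow stand against these shares. Meis1, a Hox partner in many tissues, fell by 0.76 ± 0.08 (adjusted p = 5.58e-07) and Meis2 by 0.55 ± 0.07 (adjusted p = 2.24e-06). Pbx2 fell by 0.26 ± 0.05 and Pbxip1, which binds Pbx proteins, by 0.86 ± 0.19. Tgif1, which represses retinoid and TGFβ targets, rose by 0.62 ± 0.13 (adjusted p = 0.00038), and Meis3 rose by 0.21 ± 0.05.

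Retinoic acid switches on Hox genes in the embryo. Of 18 genes of its supply, receptors and breakdown 16 were measured, and 4 were higher and 6 lower (median -0.06), where 58.7% of all genes were called. Rarb, a receptor that is itself a target of retinoic acid, fell by 0.85 ± 0.14 (adjusted p = 4.72e-05). Cyp26b1, which breaks retinoic acid down, fell by 0.72 ± 0.13 and Rarg, a second receptor, by 0.36 ± 0.06. Crabp2, which carries retinoic acid to its receptors, rose by 2.57 ± 0.29 (5.92-fold, adjusted p = 7.81e-07), Crabp1 by 1.22 ± 0.29 and Rdh10, which makes retinaldehyde, by 0.65 ± 0.17.

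Polycomb proteins keep Hox genes silent and Trithorax proteins keep them active. Of 21 measured genes 5 were higher and 7 lower (median -0.04), where 58.7% of all genes were called. Ezh2, the histone methyltransferase of dividing cells, rose by 1.69 ± 0.15 (3.22-fold, adjusted p = 3.59e-08), while Ezh1, its relative in resting cells, fell by 0.91 ± 0.08 (adjusted p = 5.61e-08). Kdm6a, which removes the Polycomb mark, fell by 0.70 ± 0.08, and Phc1 fell by 0.49 ± 0.07.

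Genes that border the Hox clusters did not share a direction. Of 13 measured, 3 were higher (Lnpk, Mtx2 and Skap2) and 3 lower (Calcoco1, Atf2 and Hibadh), with a median of -0.01. Calcoco1, beside cluster C, fell by 1.36 ± 0.16 (adjusted p = 1.32e-06), and Hibadh, beside cluster A, by 0.34 ± 0.05. Lnpk and Mtx2, beside cluster D, rose by 0.47 ± 0.08 and 0.45 ± 0.09.

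Other transcription factors of position form a further list. Of 36 listed 25 were measured, and 11 were lower and 3 higher with infusion (median -0.32), against 31.4% and 27.3% of all genes. Foxc1, which acts in the aortic arch, fell by 0.75 ± 0.10 (adjusted p = 6.9e-06), Tbx1, needed for the pharyngeal arch arteries, by 0.74 ± 0.11 (adjusted p = 9.65e-06) and Foxf1, a gene of splanchnic mesoderm, by 1.72 ± 0.27 (adjusted p = 2.92e-05). Prrx2 rose by 0.92 ± 0.07 (adjusted p = 6.41e-09), and Tbx20 and Foxc2 by 0.56 ± 0.14 and 0.25 ± 0.09. For all these lists the members were chosen with results of these data known, and the counts are a description.

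Markers of cell types moved with infusion too, and of all genes 31.4% were lower and 27.3% higher. Of smooth muscle markers 5 of 10 were lower and none higher (median -0.46), with a summed level of 1750 to 2990 on vehicle and 1260 to 2610 on infused arrays. Of adventitial fibroblast markers 6 of 11 were lower and 3 higher, with sums of 801 to 1180 and 709 to 1050. Macrophage markers were higher in 9 of 10, with sums of 126 to 217 and 161 to 268, and markers of dividing cells in 9 of 9, with sums of 2.56 to 5.34 and 18.8 to 118. Their part in the lower Hox signal was not tested. The infused arrays with the smallest sums for dividing cells were KO infused replicate 3 (18.8), WT infused replicate 3 (31.6) and WT salt with infusion replicate 2 (35.2).

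Markers of neighbouring tissue were read as well. Brown fat markers were lower in 4 and higher in 1 of 9, white fat markers lower in 5 and higher in 1 of 9, and thymocyte markers lower in 6 of 9. Cyp11b1, Cyp11b2, Hsd3b1, Umod and Slc12a1, defining genes of adrenal and kidney, and Sftpa1 and Ager of lung were above background on no array. Other members of these lists were seen: 3 of 9 adrenal and kidney markers and 2 of 7 lung markers passed the filter. Between genotypes, where 31.3% of all genes were higher in KO and 36.8% lower, mesothelium markers were higher in 7 of 8 in KO (median 1.21). Adventitial fibroblast markers were higher in 7 of 11, smooth muscle markers lower in 8 of 10 and markers of B cells and lymph node lower in 6 of 6. Measured markers of adrenal and kidney were lower in 2 of 3 and those of lung in 2 of 2. Their part in the genotype differences of the Hox genes was not tested, and the defining smooth muscle markers were above background on all 24 arrays.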

How the data were processed

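Values were the deposited scanner intensities (processed signal, linear, background-subtracted and detrended per array, per the file headers), with the deposited flags (other values, no measurement) that mark spots well above background or outlying. Feature Extraction, Agilent's image software, is version 10.7.1.1 in the headers but 9.5.1.1 in the submitters' processing notes. Outlier spots (2910) were dropped, spots of a probe were averaged and each array was centred on the 75th percentile of log2 signal. A probe counted as above background where at least 50% of its spots were.

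A limma 3.58.1 model (R 4.3.3) over all 24 arrays gave 12 comparisons for 23506 genes, with Benjamini-Hochberg adjustment and a threshold of 0.05, and was tested on simulated data. Alternatives are in the closing section. Names come from the files or, by accession, from RefSeq. All Hox genes could be named, and of each list up to 4 members of smallest p per direction for infusion and defining markers not above background. Members and lists were chosen with earlier results of these data known. The number of arrays limits the precision. Replicate numbers of WT salt differ between titles and source names, and the latter were used. Some results are not reported here.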

Additional observations from a re-analysis of the deposited data

How the results depend on the processing

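The numbers of Hox genes called, and the index, were recomputed under every alternative. For infusion in WT on water the count of 7 became 0 with slide as a fixed block, 0 with slide as a random block and 0 in a fit of those groups alone. For infusion in WT on salt the count of 10 became 6 within slide 3, which was added after seeing the data. For infusion in KO on water the count of 5 became 2 in a fit of those groups alone and 3 within slide 1, also added later. For infusion in KO on salt the count of 2 became 7 with normexp, 5 with no filter, 4 with slide as a fixed block (Hoxb7, Hoxc4, Hoxc5 and Hoxc6, all higher), 1 with slide as a random block and 6 in a fit of those groups alone. For genotype the count of 16 became 4 with slide as a random block (consensus correlation 0.485), and the fixed block gave no value there. For infusion by genotype the count of 0 became 1 with slide as a fixed block. The index difference of 0.12 became 0.36 with only probes above background on all 24 arrays. In each case the cause was not tested. Over all genes, genotype calls went from 16016 to 4638 with slide as a random block, infusion by genotype from 54 to 2370 with it as a fixed block, and infusion in WT on water from 6088 to 262 and 770 with the fixed and the random block.

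Leaving out each array in turn gave counts of 10 to 14 for infusion, 13 to 18 for genotype, 0 to 1 for infusion by genotype, 3 to 9 for infusion in WT on water, 7 to 12 in WT on salt, 3 to 6 in KO on water and 1 to 4 in KO on salt, and index differences of 0.06 to 0.16. Hoxc5, Hoxd8 and Hoxa10 reversed for genotype with normexp (-0.18, -0.12 and -0.13). With the replicate block the infusion count was 11 and the genotype count 15. Over genes, deviations from the group means had a median correlation of -0.023 between same-numbered arrays of different groups. By this measure 3 of 24 arrays correlated best with their own number, so the numbers did not pair the arrays. Depth here is signal over background, and a probe not above it has only an upper bound.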
